A study of Mus musculus with 10 samples.

Results

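The genes described here are 10 that cells switch on when oxygen is short: Adm, Vegfa, Slc2a1, Aldoa, Pgk1, Ldha, Pdk1, Bnip3, Egln3 and Ndrg1. They were taken by an exact match of the gene symbol in the array's annotation, which gave 28 probe sets for these 10 of 18193 named genes, out of 45037 probe sets in all. The genes were selected on their intensities on these same arrays, above all on the values of a single RNA pool that stood apart, so the height of that pool in them is a description and carries no test. By the sample labels the RNA came from mouse urogenital systems of embryonic day 15.5, and it was measured on Affymetrix arrays. The design text of the series instead describes isolated kidney mesenchyme of an earlier stage from a Wnt9b+/- intercross, and the sample labels were followed here. The arrays fall into 5 pools from embryos with the genotype Wnt9bcneo/cneo, called homozygous here, and 5 pools labelled Wnt9bcneo/+, called control. The titles of the control samples call them wild type, so whether they carry 1 cneo allele is not settled by the labels. What cneo changes in Wnt9b, the secreted Wnt signal of the ureteric bud that nephron formation depends on, is not given in the labels. Each pool held RNA of 1 to 2 urogenital systems, and p-values measure the spread between such pools.

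Cells sense oxygen through prolyl hydroxylases that mark the alpha subunits of hypoxia-inducible factor (HIF) for destruction by the von Hippel-Lindau protein while oxygen is present. When oxygen falls the alpha subunits persist, pair with Arnt and bind short hypoxia response elements near their target genes. The targets raise glucose uptake and glycolysis, turn pyruvate away from the mitochondria, send out vessel-forming signals and include a hydroxylase that feeds back on HIF itself. The fetal kidney grows at low oxygen, and its podocytes, tubules and vessels use Vegfa and other HIF targets as they form.

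The hypoxia response element holds the core ACGTG or GCGTG. Promoter windows of 250 bases before to 50 bases after the transcript start (RefSeq, GRCm38.p6) were found for 9 of the 10 genes, and Ndrg1 was not matched. On either strand, 8 of the 14 windows of these 9 genes held ACGTG, against 19.6% of all 32851 windows of this length, and 11 of the 14 held ACGTG or GCGTG, against 43.8% of all. The 2 Aldoa windows with a match overlap, and some matches share bases in the palindrome CACGTG. Windows of 6 genes are printed, with capitals marking every match to either core on either strand. The windows without a match belong to Aldoa, Pdk1 and Vegfa, genes whose windows are not printed.
Adm, chr7:110627407-110627706, plus strand: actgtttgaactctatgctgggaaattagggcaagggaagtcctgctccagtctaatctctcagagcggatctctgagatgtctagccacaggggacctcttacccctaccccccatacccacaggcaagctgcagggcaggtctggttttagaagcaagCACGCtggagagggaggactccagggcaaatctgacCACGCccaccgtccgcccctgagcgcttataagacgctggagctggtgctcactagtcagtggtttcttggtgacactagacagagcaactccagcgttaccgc
Slc2a1, chr4:119108495-119108794, plus strand: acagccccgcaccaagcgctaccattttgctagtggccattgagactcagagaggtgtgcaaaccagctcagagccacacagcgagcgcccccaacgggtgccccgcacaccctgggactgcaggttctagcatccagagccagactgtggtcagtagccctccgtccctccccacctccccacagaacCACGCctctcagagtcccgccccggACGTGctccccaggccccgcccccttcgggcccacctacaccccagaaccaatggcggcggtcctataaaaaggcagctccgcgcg
Pgk1, chrX:106186850-106187149, plus strand: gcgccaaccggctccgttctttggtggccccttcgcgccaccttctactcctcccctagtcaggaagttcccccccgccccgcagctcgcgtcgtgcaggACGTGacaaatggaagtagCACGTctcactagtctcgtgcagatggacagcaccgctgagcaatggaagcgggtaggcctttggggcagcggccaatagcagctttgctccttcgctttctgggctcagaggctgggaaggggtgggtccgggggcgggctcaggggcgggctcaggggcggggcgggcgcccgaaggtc
Ldha, chr7:46845554-46845853, plus strand: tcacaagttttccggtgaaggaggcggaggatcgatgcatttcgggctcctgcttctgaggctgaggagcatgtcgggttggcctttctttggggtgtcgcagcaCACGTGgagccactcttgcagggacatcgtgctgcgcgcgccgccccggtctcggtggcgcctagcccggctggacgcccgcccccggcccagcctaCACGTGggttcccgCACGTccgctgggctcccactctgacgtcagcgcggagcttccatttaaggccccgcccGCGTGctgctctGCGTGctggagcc
Bnip3, chr7:138909457-138909756, minus strand: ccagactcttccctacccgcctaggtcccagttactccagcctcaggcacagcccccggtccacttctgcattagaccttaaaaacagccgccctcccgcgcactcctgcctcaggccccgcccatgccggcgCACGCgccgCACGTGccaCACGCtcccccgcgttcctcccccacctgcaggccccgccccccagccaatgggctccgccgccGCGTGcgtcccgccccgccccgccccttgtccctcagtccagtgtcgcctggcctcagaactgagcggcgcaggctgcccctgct
Egln3, chr12:54203825-54204124, minus strand: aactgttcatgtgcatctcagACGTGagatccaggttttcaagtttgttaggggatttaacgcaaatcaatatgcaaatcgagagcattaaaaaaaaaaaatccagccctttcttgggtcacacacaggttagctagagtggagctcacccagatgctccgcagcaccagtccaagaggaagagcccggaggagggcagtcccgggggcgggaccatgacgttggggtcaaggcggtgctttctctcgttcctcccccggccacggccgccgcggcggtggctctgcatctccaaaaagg
The printed windows of Slc2a1, Pgk1, Ldha, Bnip3 and Egln3 contain ACGTG, and that of Adm holds GCGTG read on the opposite strand at 2 places. Another Ldha window, not printed, holds no ACGTG. A match of these letters describes the window and does not show that HIF binds there.

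A pair of arrays stood apart. Actin read at its 3' end over actin read at its middle, which climbs as RNA breaks down, gave ratios of 97.7 on the array of homozygous pool 5 and 94.8 on that of control pool 1, while the remaining 8 ran from 9.87 to 33.1. For Gapdh that ratio reached 43.4 in homozygous pool 5, 68.7 in control pool 1 and 22.1 to 50.5 in the remaining 8. In homozygous pool 5, 12.1% of all genes lay at least 2-fold below the mean of the other 9 pools, and in control pool 1 10.8% did. Homozygous pools 3, 4 and 5 had a high level of Xist, which coats the silenced X of female cells (13.8 to 14.3 on the log2 scale, against 5.13 to 6.07 in the other 7), and Pgk1 is X-linked. The titles of homozygous pools 1 to 4 end in CHP and those of homozygous pool 5 and the controls do not, so within the homozygous group pool 5 and any separate handling of its array cannot be told apart. The brighter Wnt9b probe set had intensities of 47.8 to 201 in homozygous pools and 121 to 143 in control pools, so it did not separate the genotypes, and which part of the gene cneo alters is not known here. In such bulk tissue, fewer cells of a type and less RNA per cell cannot be told apart either. Levels are linear array intensities with a floor of 16, differences are on the log2 scale, and each gene is represented by its brightest probe set unless others are named.

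All 10 genes were highest in homozygous pool 5, which exceeded the mean of the other 9 pools by 0.67 to 3.69 on the log2 scale, with a mean of 1.75 over the 10 genes. The mean of the 10 genes deviated by -0.33 to -0.03 in each of the other 9 pools. Each of those was compared with a mean that includes homozygous pool 5, which lowers its deviation. In homozygous pool 5, 7 of the 10 genes lay at least 2-fold above the other 9 pools, against 5.41% of all genes, and in none of the other 9 pools did any of the 10 genes do so, although 4.99%, 3.52%, 4.65% and 1.63% of all genes did in homozygous pools 1 to 4 and 2.34%, 3.49%, 2.14%, 3.53% and 3.02% in control pools 1 to 5. Homozygous pool 5 was the highest of the 10 arrays in 19.5% of all genes. These counts rest on the values with which the genes were chosen, and nothing is read from them.

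**Figure D1:**
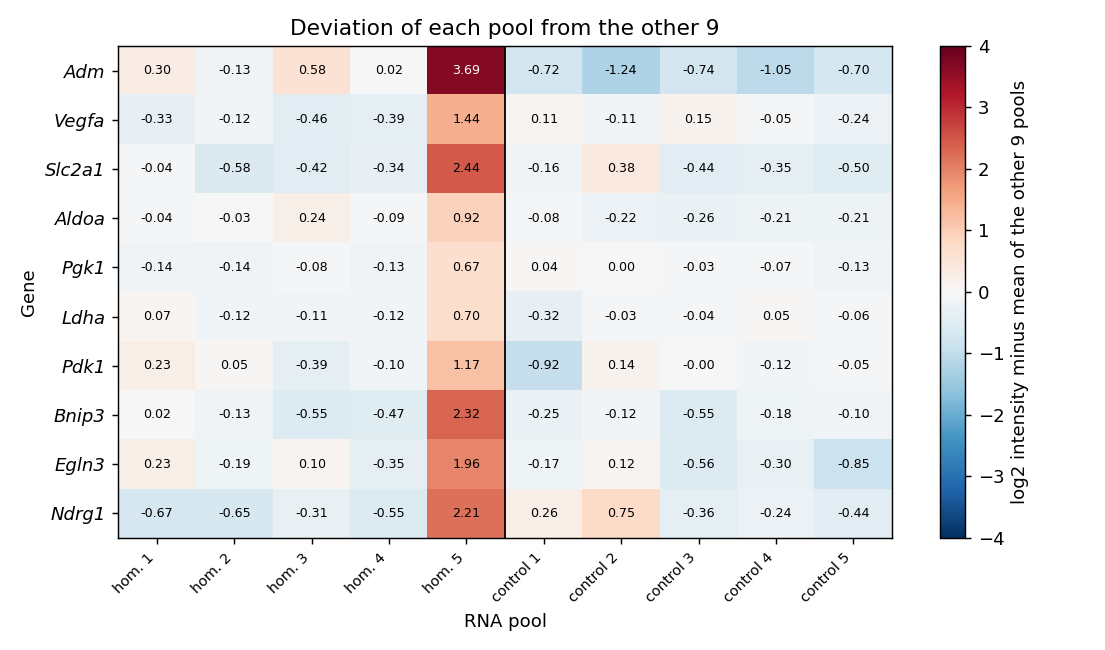
Log2 intensity of each of the 10 genes in each RNA pool minus the mean of the other 9 pools, homozygous pools left of the line and control pools right of it. The column of homozygous pool 5 is positive for every gene, from 0.67 for Pgk1 to 3.69 for Adm, and the mean over the genes lies between -0.33 and -0.03 in the other columns. The other columns are lowered by the inclusion of homozygous pool 5 in the mean they are compared with.

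Adm and Vegfa encode secreted signals, and Adm had the largest deviation of the 10 genes in homozygous pool 5. Adm encodes adrenomedullin, a peptide that widens vessels and is made in the adrenal medulla among other tissues. Its intensity was 353, 270.1, 421, 297 and 2923 in homozygous pools 1 to 5, against 187, 135, 185, 152 and 189 in control pools 1 to 5. Homozygous pool 5 lay 12.9-fold above the mean of the other 9, and the other 4 homozygous pools also lay above every control pool. Homozygous minus control came to 1.60 ± 0.61 (SE), which did not pass (limma adjusted p = 0.245, over all genes). With homozygous pool 5 left out it was 0.97 ± 0.17 (SE; limma adjusted p = 0.0698). Its second probe set, at 228 to 1575 in homozygous pools against 118 to 148 in control pools, did not overlap between genotypes either, and it passed only with array weights (limma adjusted p = 0.0418) and without the 3 pools of high Xist (limma adjusted p = 0.0175). Groups failed to overlap in 4.71% of all genes over 10 arrays and in 6.61% without homozygous pool 5, so Adm is among many genes of this kind.

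Markers of neurons and of chromaffin cells, the cells of the adrenal medulla, were also measured, and none of the 6 passed between the genotypes (limma adjusted p of 0.0558 to 0.129). The summed intensity of the 6 measured markers of 7 listed was 4220 to 13865 in homozygous pools and 282 to 2434 in control pools, with none of the 6 at the floor in homozygous pool 5. The noradrenaline-synthesizing enzyme gene Dbh ran at 1873, 1090.2, 2332, 933 and 2032 in homozygous pools 1 to 5, against 86.5, 483, 34.3, 191 and 306 in control pools 1 to 5. Homozygous pool 5 lay inside the range of the other homozygous pools for the sum and for 5 of the 6 markers. The exception was Stmn2, a neuronal microtubule regulator gene named after its values were seen, with 341 in homozygous pool 5 and 939 to 2154 in homozygous pools 1 to 4. The part of these cells in the Adm difference was not tested.

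Vegfa, the growth factor for blood vessels that podocytes release, had an intensity of 1099.6, 1253, 1019, 1064 and 3337 in homozygous pools 1 to 5, against 1452, 1267, 1488, 1310.0 and 1168 in control pools 1 to 5. Homozygous pool 5 was 2.72-fold above the other 9, while homozygous pools 1, 3 and 4 lay below every control pool and pool 2 inside the control range. The genotype difference was 0.05 ± 0.31 (SE; limma adjusted p = 0.984) with all pools and -0.27 ± 0.09 (SE; limma adjusted p = 0.206) without homozygous pool 5. Podocyte markers had a summed intensity of 1695 in homozygous pool 5 over the 4 measured of 6 listed, against 2554 to 3973 in homozygous pools 1 to 4 and 2930 to 5855 in control pools. Endothelial markers summed to 3221 in homozygous pool 5, against 4385 to 4585 in homozygous pools 1 to 4 and 3795 to 5275 in control pools. Of the podocyte markers Wt1, Podxl and Synpo lay at least 2-fold below the other 9 pools, while the slit diaphragm gene Nphs1, at 80.0 in homozygous pool 5, was highest there. The part of these cells in the Vegfa value was not tested.

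**Figure D2:**
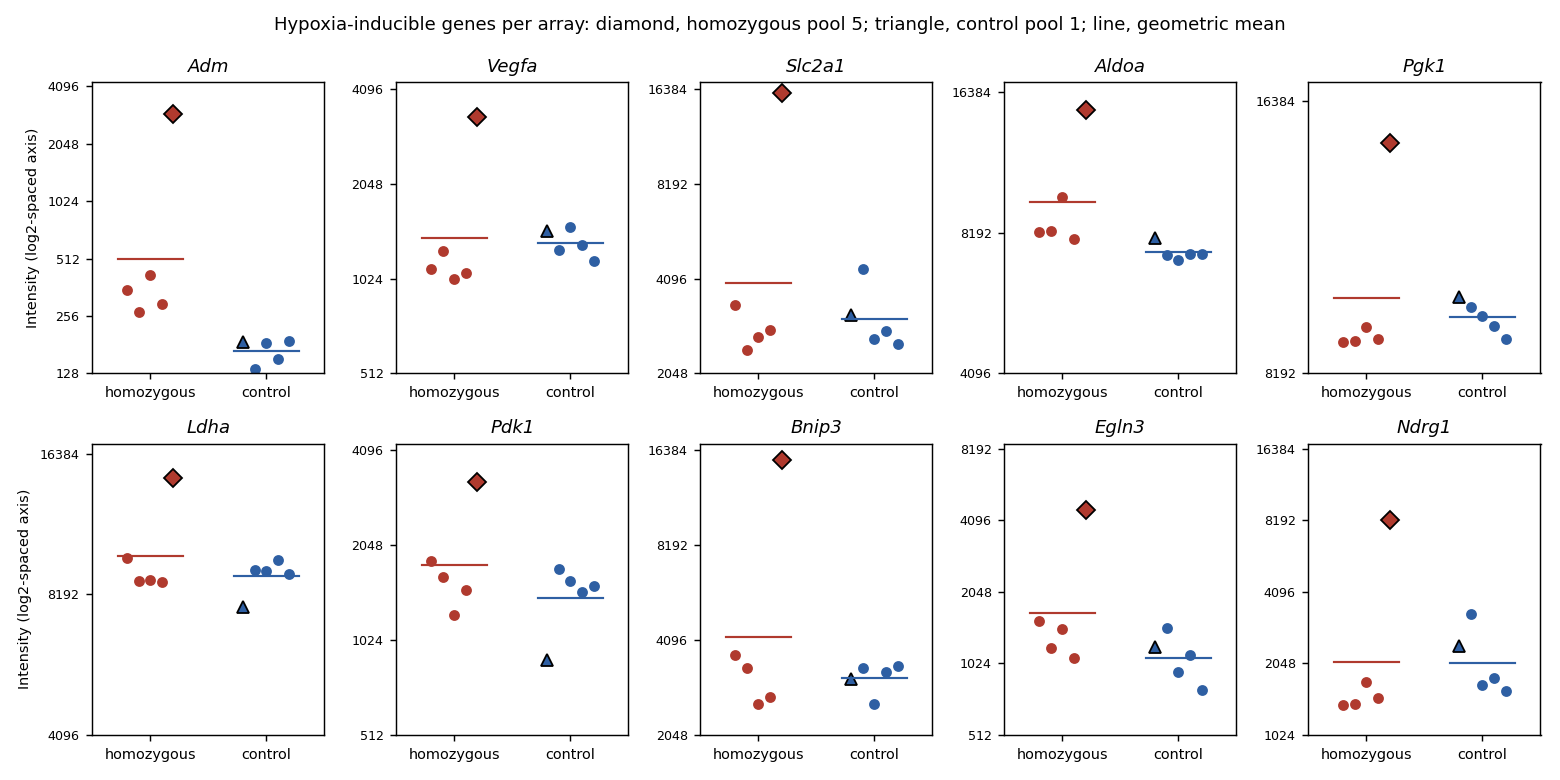
Intensity of each gene on every array, on a log2-spaced axis, with homozygous pools left and control pools right of each panel and lines at the geometric means. The diamond of homozygous pool 5 tops every panel, at 2923 for Adm and 15901 for Slc2a1, and the triangle of control pool 1 lies among or below the other controls except for Pgk1 and Aldoa, where it is their highest.

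A further group serves glucose uptake and use. Slc2a1 encodes GLUT1, the glucose carrier of many fetal cells. Its intensity was 3376, 2424, 2667, 2817 and 15901 in homozygous pools 1 to 5, against 3151, 4408, 2638, 2791 and 2542 in control pools 1 to 5. Homozygous pool 5 was 5.42-fold above the other 9 and control pool 2 came next, above the remaining 8, so the groups overlapped. The genotype difference was 0.38 ± 0.50 (SE; limma adjusted p = 0.750), and -0.12 ± 0.18 (SE; limma adjusted p = 0.840) without homozygous pool 5.

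Pdk1 encodes the kinase that shuts off pyruvate dehydrogenase and so keeps pyruvate out of the mitochondria. It stood at 1821, 1623, 1234, 1479.8 and 3259.7 in homozygous pools 1 to 5, against 884, 1716, 1573, 1456 and 1523 in control pools 1 to 5. Homozygous pool 5 was highest and control pool 1 lowest. A second Pdk1 probe set was farther apart, reading 5273 in homozygous pool 5, with the other 9 pools at 1047 to 1565. The genotype difference was 0.35 ± 0.28 (SE; limma adjusted p = 0.612), and 0.13 ± 0.21 (SE; limma adjusted p = 0.866) without homozygous pool 5. Without control pool 1 it was 0.18.

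The 3 glycolytic enzyme genes had the smallest deviations of the 10 in homozygous pool 5. Aldoa, which encodes aldolase, had 8215, 8279, 9775, 7966 and 15017 in homozygous pools 1 to 5, against 8004, 7356, 7166, 7384 and 7382 in control pools 1 to 5. Pgk1, the gene of phosphoglycerate kinase, had 8874, 8895, 9227, 8939.6 and 14749 in homozygous pools 1 to 5, against 9959.9, 9710.4, 9492, 9253 and 8937 in control pools 1 to 5. Ldha, whose product turns pyruvate into lactate, had 9813, 8747, 8802, 8712 and 14560.3 in homozygous pools 1 to 5, against 7700.1, 9219.6, 9200.0, 9687 and 9051 in control pools 1 to 5. Homozygous pool 5 exceeded the other 9 by 1.90-fold for Aldoa, 1.60-fold for Pgk1 and 1.62-fold for Ldha, and those 9 pools had an SD of 0.14, 0.06 and 0.10 on the log2 scale in the same order. The genotype differences were 0.36 ± 0.17 for Aldoa, 0.07 ± 0.14 for Pgk1 and 0.15 ± 0.15 for Ldha (SE), none of which passed (limma adjusted p of 0.343, 0.862 and 0.673). Without homozygous pool 5 they were 0.19 ± 0.07, -0.08 ± 0.04 and 0.01 ± 0.07 (SE; limma adjusted p of 0.219, 0.461 and 1), and without control pool 1 that of Ldha was 0.09. Quantile normalization between arrays, which forces all arrays to one distribution, lowered these 3 deviations of homozygous pool 5. On the log2 scale they went from 0.92, 0.67 and 0.70 to 0.60, 0.34 and 0.37. The deviations of Slc2a1 and Bnip3 also fell, from 2.44 to 2.17 and from 2.32 to 2.02.

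Bnip3, a mitochondrial outer membrane protein gene that marks mitochondria for removal, had 3663, 3329, 2565, 2693 and 15322 in homozygous pools 1 to 5, against 3086, 3344, 2566, 3234 and 3392 in control pools 1 to 5. Homozygous pool 5 was 4.99-fold above the other 9, which overlapped between the genotypes. The genotype difference was 0.43 ± 0.46 (SE; limma adjusted p = 0.691), and -0.04 ± 0.13 (SE; limma adjusted p = 0.974) without homozygous pool 5.

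Egln3 encodes the prolyl hydroxylase PHD3, a HIF target that also acts on HIF. Its intensity was 1547, 1193, 1422, 1079 and 4546 in homozygous pools 1 to 5, against 1205, 1447, 946, 1109 and 789.7 in control pools 1 to 5. Its second probe set ran alike, with 4323 in homozygous pool 5 and 834 to 1344 elsewhere. The genotype difference was 0.63 ± 0.38 (SE; limma adjusted p = 0.483), and 0.27 ± 0.19 (SE; limma adjusted p = 0.580) without homozygous pool 5.

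Ndrg1, a gene induced by hypoxia and by cell differentiation, had 1366, 1381, 1705, 1465 and 8237 in homozygous pools 1 to 5, against 2434, 3307, 1657, 1780.5 and 1569 in control pools 1 to 5. Homozygous pool 5 was 4.64-fold above the other 9, with control pools 2 and 1 next. Another Ndrg1 probe set read 982 in homozygous pool 5, inside the 570 to 2156 of the other 9 pools. Without homozygous pool 5 the gene was lower in homozygous pools by 0.48 on the log2 scale, a difference of -0.48 ± 0.22 (SE; limma adjusted p = 0.359) against 0.01 ± 0.51 (SE; limma adjusted p = 1) with it. Control pool 2 was the highest control for Slc2a1, Egln3, Ndrg1 and Pdk1, without standing out in the mean of the 10 genes, where it deviated by -0.03.

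Between the genotypes none of the 10 genes passed the threshold (limma, adjusted p under 0.05), where 0.967% of all genes did. At an unadjusted p under 0.05 there was 1 of 10, Adm, against 15.7% of all genes. All 10 differences were above 0 with a median of 0.35, against 0.00 for all genes, and the single high pool enters each of them. Without homozygous pool 5, 5 were above and 5 below 0 with a median of -0.01, none passed where 0.0715% of all genes did, and 3 had an unadjusted p under 0.05 (Adm and Aldoa higher, Vegfa lower in homozygous pools) against 15.5% of all genes. Averaged over the 10 genes, the log2 level was 11.57 ± 0.77 in the homozygous pools and 11.17 ± 0.10 in the control pools (SD, n = 5 each), and homozygous pools 1 to 4 gave 11.23 ± 0.08 (SD, n = 4). The SD within homozygous pools exceeded that within control pools in all 10 genes, against 54.4% of all genes, and in 3 of 10 once pool 5 was left out. The larger SD follows from choosing the genes on the height of that pool, so nothing is read from it. The share over all genes without pool 5 was not taken. Over the 28 probe sets 0 passed, where 0.231% of all probe sets did, and 2 had an unadjusted p under 0.05, against 12.3% of all.

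**Figure D3:**
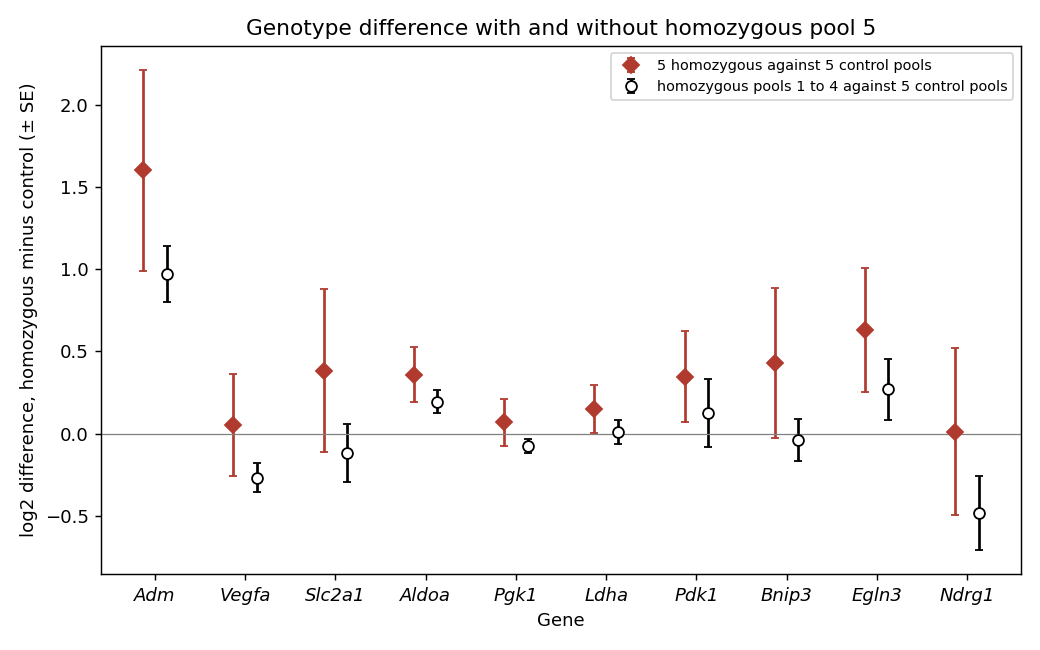
Log2 difference of each gene between the genotypes, homozygous minus control, with all pools (filled diamonds) and without homozygous pool 5 (open circles); bars are standard errors of the limma fit. All 10 diamonds lie above 0 and 5 of the 10 circles lie below it, and Adm keeps the highest difference in both.

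The probe sets of a gene did not all follow its brightest. Of the 28 probe sets, 24 had a mean intensity of at least 100, and 20 of these were highest in homozygous pool 5. The 4 others belong to Slc2a1, Aldoa, Pdk1 and Ndrg1. An Aldoa probe set read 1557, 989, 483, 554 and 334 in homozygous pools 1 to 5, against 84.7, 667, 954, 1648 and 1159 in control pools 1 to 5. A Slc2a1 probe set read 888, 531, 400.3, 518 and 608 in homozygous pools 1 to 5, against 201, 871, 694, 793 and 752 in control pools 1 to 5. All 4 were lowest in control pool 1, which deviated by -3.44 to -0.93 from the mean of the 8 pools with a lower actin ratio, and homozygous pool 5 deviated by -1.46 to -0.11. For the 20 probe sets highest in homozygous pool 5, control pool 1 ranged from -0.83 to 2.21 around the mean of the 8 pools. Control pool 1 shares the high actin ratio, and homozygous pool 5 was above it in all 10 genes, by a median of 1.82, against 0.00 over all genes. By at least 2-fold it was higher in 7 of 10, against 10.6% of all genes. The 10 genes were chosen on the height of homozygous pool 5, so nothing is read from this comparison. These pools also differed in genotype, Xist level and Gapdh ratio.

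**Figure D4:**
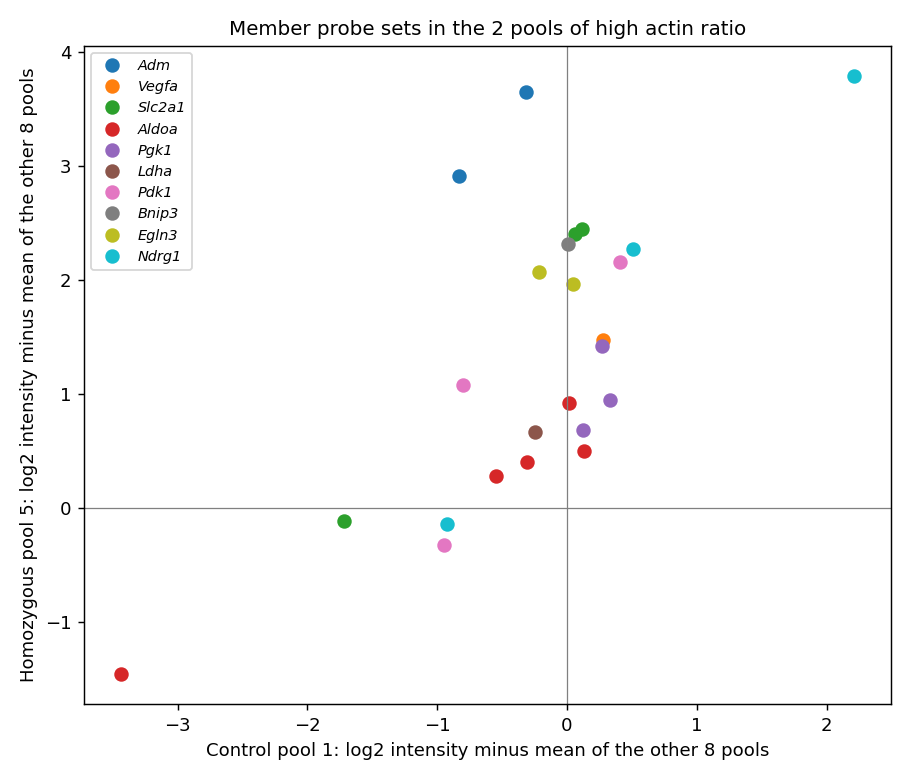
The 24 member probe sets of mean intensity of at least 100, with the log2 deviation of control pool 1 (x axis) and of homozygous pool 5 (y axis) from the mean of the other 8 pools, coloured by gene. The 4 points below 0 on the y axis lie at -0.93 or less on the x axis, and the other 20 lie above 0 on the y axis.

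Other genes of the HIF pathway came from a list of 68, of which 61 were measured by a probe set with a single gene symbol. The list was chosen with earlier results of these data known, so its values in homozygous pool 5 are a description. There 45 of the 61 lay above the mean of the other 9 pools and 16 below it. In that pool 19 of the 61 lay at least 2-fold above the mean of the other 9, against 5.41% of all genes, and 4 lay at least 2-fold below it, against 12.1%. The list's median deviation there was 0.58, against -0.01 over all genes, and -0.38 to 0.12 in the other 9 pools. In control pool 1 none of the 61 lay 2-fold above the other pools, against 2.34% of all genes, and 9 lay 2-fold below, against 10.8%.

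Among the glucose and energy genes 10 of 21 were at least 2-fold higher. Hk2, the hexokinase that traps glucose in the cell, had 1343, 1159.5, 1094, 1139 and 6045 in homozygous pools 1 to 5, against 1278, 1608, 1171, 1229 and 1183 in control pools 1 to 5. Ak4, a mitochondrial adenylate kinase gene, deviated by 2.13 and the phosphofructokinase gene Pfkp by 2.20 in homozygous pool 5. Slc2a3, which encodes the glucose carrier GLUT3, deviated by 2.09 there, and read 4358, 2899, 5256, 3102 and 11011 in homozygous pools 1 to 5, against 1439, 2933, 1992, 1514 and 1933 in control pools 1 to 5. Its genotype difference of 1.31 ± 0.37 (SE) did not pass (limma adjusted p = 0.126).

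Of the protein-modifying genes 3 of 8 were at least 2-fold higher, and Ero1a, an oxidase of disulfide bond formation, led with 8842 in homozygous pool 5, the other 9 pools having 1555 to 2197. The other pair, chosen after their values were seen, were the collagen hydroxylase genes P4ha1 and Plod2. In the stress and cell cycle part 4 of 10 were, Bhlhe40, Vldlr, Bhlhe41 and Fam162a, and among secreted and vascular signals 2 of 12, Flt1, a VEGF receptor gene (2.05), and Stc2 (1.77), all named after their values were seen. None of the 10 HIF subunit and regulator genes was 2-fold higher. Hif1a, the oxygen-regulated subunit, deviated by 0.58 (0.28 with quantile normalization) and Egln1, the main oxygen sensor and a HIF target, by 0.88. The 4 genes at least 2-fold lower, also named after their values were seen, were Txnip (-1.70), Angptl4 (-1.62), Pkm (-1.13) and Pfkl. Pkm, a pyruvate kinase gene, read 1332 in homozygous pool 5 and 1211 in control pool 1, with 2007 to 4274 elsewhere, so its low value was shared by both pools of high actin ratio.

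**Figure D5:**
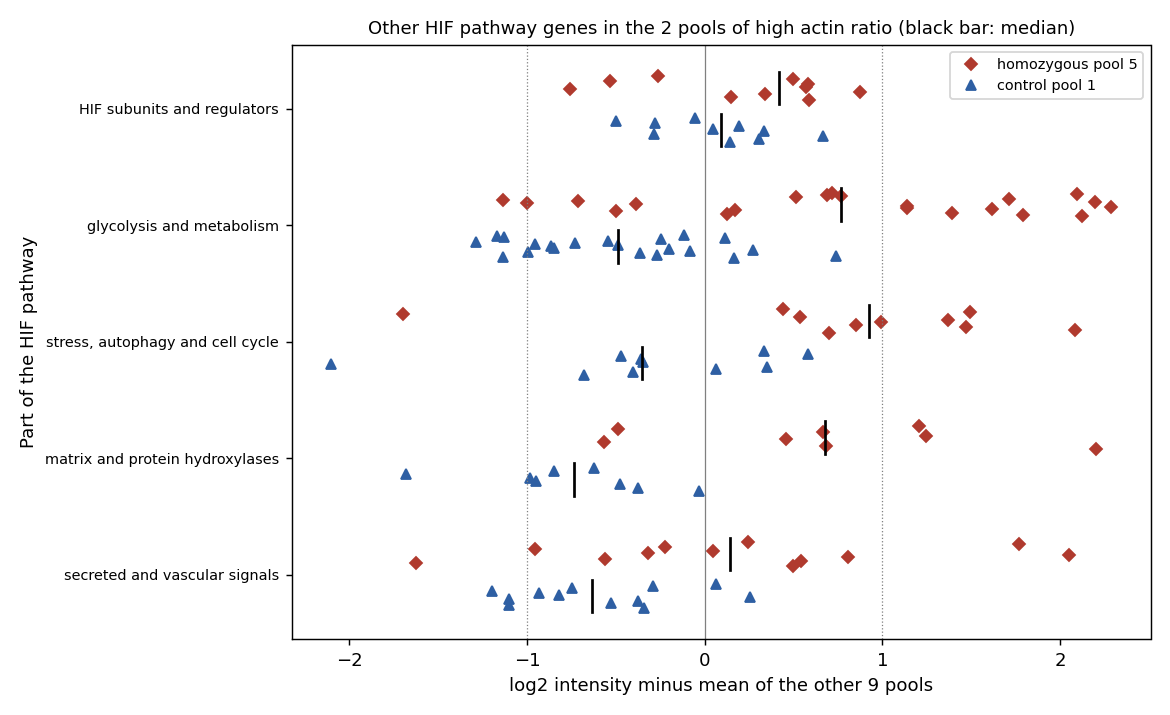
Deviation of homozygous pool 5 (diamonds) and control pool 1 (triangles) from the mean of the other 9 pools on the log2 scale for 61 HIF pathway genes, by part of the pathway, with dotted lines at 2-fold and black bars at medians. In homozygous pool 5, 19 genes lie right of the upper dotted line, against 5.41% of all genes, and in control pool 1 none does, against 2.34%.

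Between the genotypes 1 of these 61 genes passed and it was higher, where 0.539% of all genes passed in that direction, and 60 did not. It was Angpt2, a vessel-remodelling signal, with 645, 492, 526, 529 and 576 in homozygous pools 1 to 5, against 342, 256, 331, 394 and 317 in control pools 1 to 5. It rose by 0.76 ± 0.12 (SE; limma adjusted p = 0.0390), and homozygous pool 5 lay inside the range of its genotype. Without homozygous pool 5 the difference was 0.75 ± 0.14 (SE) and no longer passed (limma adjusted p = 0.0722), and leaving out homozygous pool 1, 3 or 4, or control pool 1, 3, 4 or 5, also ended the call.

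Some stress genes were high in homozygous pool 5 as well. Of 12 early response and heat shock genes, 8 had their highest value there, against 19.5% of all genes. At least 2-fold above the other 9 were 4 of the 12, against 5.41% of all genes, and 1 was at least 2-fold below, against 12.1%. Their summed intensity was 24455 in homozygous pool 5, against 11454 to 14096 in homozygous pools 1 to 4 and 9918 to 11128 in control pools. Ier3, an immediate early gene, had 2170.2 in homozygous pool 5 while the other pools had 184 to 291, and Fos, a subunit of the AP-1 transcription factor, had 3143 against 243 to 1024. Hspa1a, an inducible heat shock chaperone gene, had 1464 against 187 to 554, and Junb was at the floor in that pool. Amino acid and endoplasmic reticulum stress genes summed to 32064 there, against 25343 to 28623 in homozygous pools 1 to 4 and 23507 to 30815 in control pools. Control pool 1 gave the 30815, and 1 of these 8 genes lay at least 2-fold above the other 9 in homozygous pool 5. The part of stress genes in the levels of the 10 genes was not tested.

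Tissue marker lists also deviated in homozygous pool 5. Of all genes 5.41% lay at least 2-fold above the other 9 pools there and 12.1% at least 2-fold below. At least 2-fold above the other 9 pools were 5 of 6 neuron and chromaffin genes, 3 of 6 adrenal cortex genes and 2 of 5 smooth muscle genes. Homozygous pool 5 was not alone in this, as the highest such counts among the other 9 pools were 6, 6 and 4 in the same order. Of the adrenal cortex genes 1 lay at least 2-fold below in homozygous pool 5. At least 2-fold below the other 9 pools were 3 of 4 podocyte genes, 4 of 6 skeletal muscle genes and 2 of 7 proximal tubule genes, and all 7 proximal tubule genes lay below. Between the genotypes 4 of these 7 passed (limma, adjusted p under 0.05), all lower in homozygous pools, and 0 passed without homozygous pool 5. Over all genes 0.429% passed in that direction with all pools. Nephron progenitor genes (1 of 7 above, 2 below) and ureteric bud genes (1 of 5 above, 2 below) lay on both sides, and 1 of 5 macrophage genes lay below. The summed adrenal cortex intensity was 18257 in homozygous pool 5, against 4060 to 36735 in homozygous pools 1 to 4 and 229 to 19544 in control pools. Skeletal muscle genes summed to 3287 there, against 5993 to 23098 in homozygous pools 1 to 4 and 229 to 26099 in control pools. The stroma, red cell, endothelium and fat lists had no measured gene at 2-fold in either direction. The part of tissue content in the levels of the 10 genes was not tested. Genes of all 4 kidney lists were measured, and none of the nephron progenitor, proximal tubule, podocyte or ureteric bud genes was at the floor there. Markers of red cells, which carry oxygen, summed to 1715 in homozygous pool 5, against 1288 to 2341 in homozygous pools 1 to 4 and 858 to 2220 in control pools, with Hba-a1 at the floor.

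The 5 genes, outside the 10, whose values ran most like the mean of the 10 over all 10 arrays were Hk2 (Pearson r = 0.987), Tpi1 (0.985), Ero1a (0.985), Gdap10 (0.977) and Mkrn2 (0.967), among 11789 genes of mean intensity of at least 100. Their Spearman correlations were 0.50, 0.83, 0.79, 0.52 and 0.75 in the same order. The likeness rested on homozygous pool 5 in part: over the other 9 arrays r was 0.66, 0.66, 0.72, 0.58 and 0.48, and with control pool 2 left out too it was 0.39, 0.66, 0.76, 0.27 and 0.76. Among the 10 genes themselves the median r of the 45 pairs was 0.84 over 10 arrays and 0.01 over the 9 without homozygous pool 5, where pairs ran from -0.73 to 0.85. All arrays share the same scaling, so these correlations describe the arrays and carry no p.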

How the data were processed

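The authors deposited linear intensities, with 1 value for each probe set on each array. Leaving out the top and bottom 2% of values, every array averaged 500.0, so the arrays had been scaled before deposit. How probes were summarized and background removed is not stated in the labels. The number of arrays limits the precision.

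The 64 Affymetrix control probe sets were left out of tests. Of 45037 probe sets, the platform's annotation gave 34945 a single gene symbol, 932 several and 9160 none here. Intensities under 16 were set to 16, taken to log2, and each of 18193 genes was represented by its probe set of highest mean. The genotype fit used limma 3.58.1 under R 4.3.3 (eBayes with an intensity trend, two-sided, Benjamini-Hochberg over all genes, adjusted p under 0.05), checked on simulated data. A second fit covered all probe sets. Pools were compared as values minus the mean of the other 9, called at 2-fold, with no test. Figures were drawn with matplotlib 3.10.9 in Python 3.11.15.

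The 10 genes, the HIF pathway list and the marker lists were chosen with earlier results of these data known. Genes named are the 10, the HIF pathway genes past the threshold, the 5 of that list with the largest deviation of homozygous pool 5, up to 3 per marker list, and the 5 most alike. Alternatives were the probe set rule, a filter on dim genes, quantile normalization, other floors, the variance model, array weights, the replicate number as a block and leaving out pools.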

Additional observations from a re-analysis of the deposited data

Results flagged for a closer look

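Within each group of 5 pools, the gap between an extreme pool and its neighbour was set against the whole range of the group, on the log2 scale. This was done for 28 probe sets and the mean of the 10 genes in both genotypes, 58 groups in all. The gap passed the 95% limit of 0.71 in 22 groups. Chance passes about 1 group in 20, but that rate does not apply to the height of homozygous pool 5, on which the genes were selected, so those values are a description. The probe sets of a gene measure the same RNA and are not independent.

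In 15 of the 22 groups homozygous pool 5 stood above the other homozygous pools. The share of the range was 0.893 for the mean of the 10 genes, 0.814 for an Adm probe set, 0.825 for Vegfa, 0.886 and 0.824 for Slc2a1, 0.923 and 0.787 for Pgk1, 0.768 for Ldha and 0.801 for Bnip3. It was 0.896 for Pdk1, 0.75 and 0.783 for Egln3, and 0.876, 0.728 and 1 for Ndrg1, the last from a dim probe set with every other homozygous array at the floor.

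The other 7 groups were controls. Control pool 1 was low for a Slc2a1 probe set (0.845) and for Pdk1 probe sets (0.753 and 0.712), and high for an Aldoa probe set (0.729). Control pool 2 was high for Slc2a1 (0.713), Egln3 (0.863) and a dim Ndrg1 probe set (1).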

How the results depend on the processing

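None of the 10 genes passed between the genotypes (count 0) under any of the 21 alternatives, and for Adm the difference ran from 0.88 to 1.83 and limma's adjusted p from 0.0698 to 0.411. Over all genes the count past the threshold ran from 1 with the replicate block to 951 with array weights, against 176. Of the 28 probe sets 0 passed, and 1, of Adm, without the 3 pools of high Xist or with array weights; leaving out single pools gave 0. Of the other HIF pathway genes 1 passed, against 0 with the mean of probe sets, without both arrays of high actin ratio, without the pools of high Xist and with the replicate block, 2 with a floor of 1 and with robust eBayes, 3 without dim genes and 4 with array weights; leaving out single pools gave 0 to 1.

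The mean deviation of homozygous pool 5 over the 10 genes was 1.75, against 1.52 with the mean of probe sets and 1.54 with quantile normalization, and 1.74 to 1.77 with any other single pool left out; it has no value where that pool is left out. The mean genotype difference of 0.40 ran from 0.06 without homozygous pool 5 to 0.51 without homozygous pool 4. The count of the 10 genes at 2-fold in homozygous pool 5 was 7 to 8, and that of the other HIF pathway genes 18 to 21, under settings chosen after seeing the data (quantile normalization, without control pool 1, against the other homozygous pools, against the controls).

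Genotype differences that turned below 0 did so as follows. With the mean of probe sets Pgk1 was -0.023 and Ndrg1 -0.12, and with quantile normalization Pgk1 was -0.010 and Ndrg1 -0.029. Without both arrays of high actin ratio Vegfa was -0.24, Slc2a1 -0.11, Pgk1 -0.057, Ldha -0.044, Bnip3 -0.040, Pdk1 -0.037 and Ndrg1 -0.43. Without the pools of high Xist Vegfa was -0.18, Slc2a1 -0.088, Pgk1 -0.091 and Ndrg1 -0.59. With array weights Vegfa was -0.19, Pgk1 -0.021, Ldha -0.012 and Ndrg1 -0.20. With single pools left out Vegfa ran from -0.27 to 0.16, Slc2a1 from -0.12 to 0.56, Pgk1 from -0.075 to 0.11, Bnip3 from -0.037 to 0.61 and Ndrg1 from -0.48 to 0.18, while Pdk1 stayed above 0, from 0.13 without homozygous pool 5 to 0.48 without homozygous pool 3. The cause was not tested.

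Replicate numbers are shared by the genotypes, but same-numbered pools deviated against each other (correlations of -0.66 to -0.22) and none matched its own number best, so the numbers were not taken as pairs. With the replicate block 1 gene in all passed, 0 of the 10 and 0 of the other HIF pathway genes.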
